A study of Rattus norvegicus with 38 samples.

Results

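The native hearts of Brown Norway (BN) rats were compared with the native hearts of Dark Agouti (DA) rats, both being inbred strains. A native heart is the recipient's own heart, which stays in the chest and keeps pumping while a second heart is grafted into the abdomen. Of the 38 arrays in the series, 9 were of native hearts, chosen by their sample labels. The 5 native BN hearts came from recipients of a DA allograft, and the 4 native DA hearts came from recipients of a DA isograft. All 9 were taken on post-transplant day 6, and the tissue was a cross-section through both ventricles and the septum. The labels give the type of graft, and the study's methods give the strain that goes with it. Every BN rat carried a rejecting graft and every DA rat an accepted one, so a strain difference and a remote effect of rejection cannot be told apart in these hearts. The other samples were 5 allografts and 4 isografts, which are DA tissue taken from the same recipients, and blood mononuclear cells of recipients and of 3 untransplanted BN and 3 untransplanted DA rats. BN hearts are called A3, A4, A5, A6 and A7 and DA hearts I9, I11, I12 and I13 after their recipients, and values per heart follow that order.

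Ventricle is mostly heart muscle by mass, and its transcripts are dominated by contractile proteins and by the mitochondrial machinery that burns fatty acids. Inbred rat strains are fixed for different alleles, so a transcript can differ many-fold between them in 1 tissue. An organ remote from an inflamed graft can also respond to cytokines in the blood, with acute phase proteins, metallothioneins and activated endothelium as its best known marks.

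Expression was measured on oligonucleotide arrays that give 1 signal per probeset. A level below is the signal divided by the median signal of its array, in array medians, and group levels are geometric means. The median signal was 38.27 to 45.95 over the native BN hearts and 40.47 to 44.8 over the native DA hearts. All 11 measured defining markers of heart muscle were well above the array median in both groups, among them the troponin gene Tnni3 (126 array medians in BN and 150 in DA hearts) and the light chain gene Myl2 (122 and 145), and none of the 11 passed the test. In bulk tissue, fewer cells of a type and less RNA per cell cannot be told apart.

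Differences between the native hearts were few. The limma fit over all 18 hearts tested 15866 probesets. With p-values adjusted by Benjamini-Hochberg, 466 were at 0.10 or under, 235 higher and 231 lower in BN hearts, and 217 of them by less than 2-fold. A probeset was called when it also differed at least 3-fold and its signal was no lower than the array median in 50% or more of the hearts of 1 of the groups. This gave 57 calls (0.359% of all probesets), 25 higher and 32 lower in BN hearts. Of the 57, 42 had 1 gene symbol, 6 had several and 9 had none. The groups did not overlap in 50 of the 57, while 6.67% of all probesets had no overlap. The calls were made on the same values, so nothing is read from this. Over all probesets, a first principal component with 20.8% of the variance separated the 9 native hearts. BN hearts scored 27.9 ± 11.8 (SD, n = 5) and DA hearts scored -34.8 ± 23.8 (SD, n = 4), without overlap. The two-sided p from exact permutation was 0.0159, which is the lower limit for 5 hearts against 4 (0.0317 after adjustment over the 2 components tested). The second component (14.1%) set A4 apart at -67.5 from the other BN hearts and did not separate the groups (exact permutation p = 0.968).

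**Figure D1:**
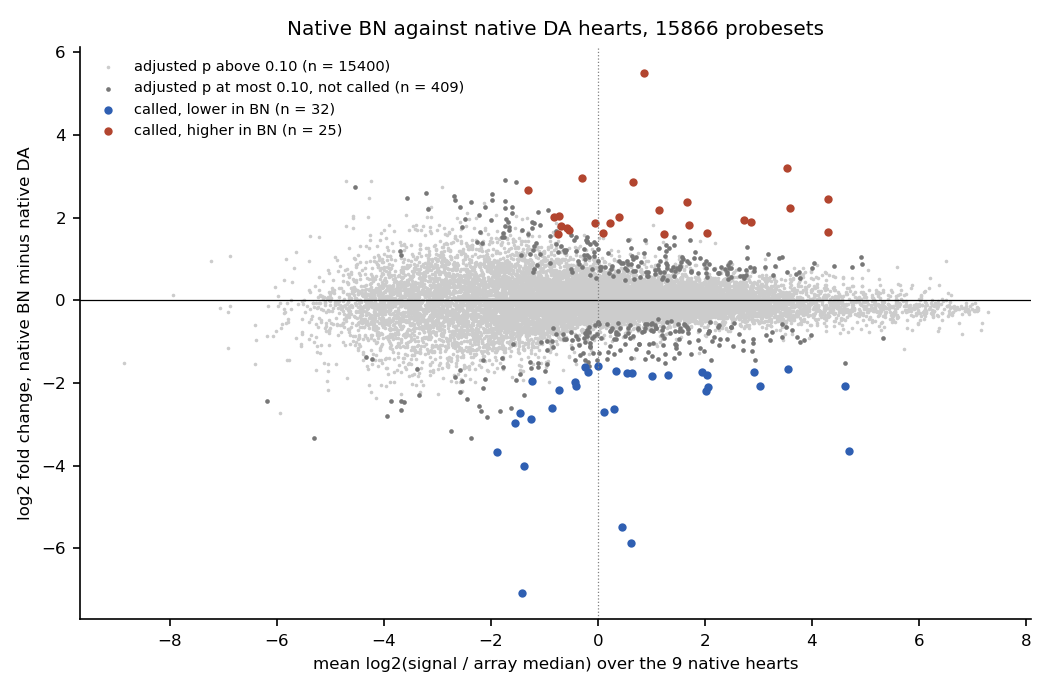
Log2 fold change of native BN over native DA hearts (y axis) against the mean log2 level over the 9 native hearts (x axis, 0 is the array median), 1 point per probeset. The 32 probesets called lower in BN reach -7.08 on the log2 scale and the 25 called higher reach 5.50, and 409 further probesets passed the adjusted p but were not called.

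Echdc2, Card9, LOC102553868 and Lad1 were below the array median in every BN heart and above it in every DA heart. Echdc2 encodes a mitochondrial protein with an enoyl-CoA hydratase domain, the fold of an enzyme step in fatty acid oxidation. Its level was 0.0441, 0.0314, 0.0518, 0.0361 and 0.051 array medians in the BN hearts and 5.9, 6.32, 4.87 and 5.82 in the DA hearts. The lowest DA heart lay far above the highest BN heart (135-fold lower in BN or -7.08 on the log2 scale, with an SE of 0.30 and an adjusted p of 5.31e-10 in limma). Folds over such dim groups depend on the low signals: with 0.25 array medians added before the logarithm, Echdc2 was 20.3-fold lower. No other of the 40 measured genes of fatty acid oxidation passed the test.

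Card9, the adaptor that carries signals from fungal pattern receptors in myeloid cells, was at 0.163, 0.327, 0.0969, 0.749 and 0.272 array medians in the BN hearts. In the DA hearts it was at 14.9, 15, 10.9 and 19.6. No BN heart reached the array median, and every DA heart exceeded it more than 10-fold (58.2-fold lower in BN, SE 0.52 on the log2 scale, adjusted p = 1.08e-05, and 28.2-fold with 0.25 array medians added). An unplaced transcript, LOC102553868, had the same kind of split, with 0.15 to 0.308 array medians in BN and 8.79 to 13 in DA hearts (44.4-fold, or 22.7-fold with 0.25 array medians added, adjusted p = 5.31e-10). Lad1, ladinin, a protein of the anchoring filaments under epithelia, was at 0.168, 0.0913, 0.0903, 0.112 and 0.114 in BN and 1.95, 2.2, 1.18 and 2.15 in DA hearts (16.2-fold, or 5.7-fold with 0.25 array medians added, adjusted p = 1.98e-07). All 4 calls held in each fit that left out 1 heart and under all 8 other settings tried. Probe sequences were not given in the sources used here, so strain variants under the probes of Echdc2, Card9 and Lad1 could not be checked. Whether such variants change their signal was not tested.

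The histocompatibility genes on which the strains are mismatched differed in both directions. These genes present peptides to T cells, class I on nearly all cells and class II mainly on antigen-presenting cells. The probeset assigned to the class I genes RT1-A3 and RT1-A2 was at 9.06, 9.62, 12.8, 7.81 and 10.6 array medians in BN hearts and 0.339, 0.132, 0.397 and 0.128 in DA hearts. It was 45.1-fold higher in BN (log2 fold change 5.50, SE 0.32, adjusted p = 3.33e-08), or 20.8-fold with 0.25 array medians added. The same addition brought RT1-A and RT1-Ba, described next, to 2.41-fold and 3.42-fold. The probeset of RT1-A, another class I gene, went the other way, with 0.192 to 0.297 array medians in BN and 0.448 to 1.23 in DA hearts (3.84-fold lower, adjusted p = 0.00231). One probeset of RT1-Ba, a class II alpha chain, was 7.35-fold lower in BN hearts (adjusted p = 0.00213), and the other one did not pass (log2 fold change 0.11, SE 0.34, adjusted p = 0.929). These genes are near-identical to their neighbours and differ in sequence between strains, so how much of a probeset's signal belongs to which gene is uncertain. Of 27 measured genes in a list of antigen presentation, each by its brightest probeset, none passed the test. Their log2 fold changes ran from -0.49 to 1.39, so the called probesets described above are not among these 27.

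Acta1, Myh7, Ano5 and Kcnip2, which serve contraction, the muscle membrane and excitation, were among the higher calls. Acta1, skeletal alpha-actin, was at 40.5, 35.7, 55.3, 36.6 and 43.2 array medians in BN hearts and 7.77, 6.72, 7.35 and 8.94 in DA hearts. It was 5.45-fold higher in BN (SE 0.26, adjusted p = 9.7e-05). One probeset of Myh7, the slow myosin heavy chain, was at 26.4, 54.4, 44.3, 20.1 and 22.7 in BN and 3.42, 2.69, 5.95 and 2.36 in DA hearts (9.22-fold higher, SE 0.47, adjusted p = 0.0014). The other Myh7 probeset was at 104 to 155 in BN and 58 to 74.5 in DA hearts and did not pass the test (log2 fold change 0.95, SE 0.31, adjusted p = 0.148). Ano5, a muscle membrane protein of the anoctamin family, was at 5.47 to 7.8 in BN and 0.873 to 1.87 in DA hearts (5.16-fold higher, adjusted p = 2.95e-05). Kcnip2, the auxiliary subunit of the channel that carries the transient outward potassium current, was at 8.52 to 16.9 and 2.07 to 4.7 (3.83-fold higher, adjusted p = 0.0218). Of its 3 probesets 1 more was above the array median, at 43.4 and 33.5 on average, and did not pass (adjusted p = 0.749).

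The promoter of Acta1 holds 3 elements known from muscle actin genes, and the 120 bases before its start are shown because the call of Acta1 held in every fit. The sequence is from RefSeq (build GRCr8, chr19:68784195-68784314, minus strand), and capitals mark, from left to right, a CArG box (bound by serum response factor), an MCAT element (CATTCC, bound by TEA-domain factors) and a TATA box (TATAAA), near which the transcription complex forms.
Acta1: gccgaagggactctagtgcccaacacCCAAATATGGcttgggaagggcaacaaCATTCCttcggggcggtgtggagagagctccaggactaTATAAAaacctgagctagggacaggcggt
Searched on both strands over the 250 bases before each start, these were present in 1.5%, 12.1% and 12.9% of 33469 promoters. The 3 matches do not overlap, and a match is a description of the letters only.

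As a group, the fetal and stress genes of heart muscle mostly did not pass the test. Of 22 measured, 3 were higher in BN hearts, none was lower and 19 did not pass, with a median log2 fold change of 0.35 beside -0.04 over all 10411 genes. Over all genes 1.31% were higher and 1.39% lower. The 3 were Acta1, the matrix-associated growth factor Ccn2 (1.9-fold) and vimentin, Vim (1.6-fold), and Ccn2 and Vim each passed in only 1 of the 9 fits that left out 1 heart. The natriuretic peptide genes, classical markers of wall stress, did not pass: Nppb was at 62.2 in BN and 35.4 in DA hearts (adjusted p = 0.37) and Nppa at 12.2 and 13.2 (adjusted p = 0.933). The fast myosin gene Myh6 was at 65.3 and 110 (adjusted p = 0.602). By brightest probeset, none of 25 sarcomere genes and none of 52 subunits of the respiratory chain and ATP synthase passed. The called Myh7 probeset is not the brightest of its gene and does not enter these counts. Of the 52 subunits, 48 had a negative log2 fold change, with a median of -0.22 that was -0.05 after quantile normalization.

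**Figure D2:**
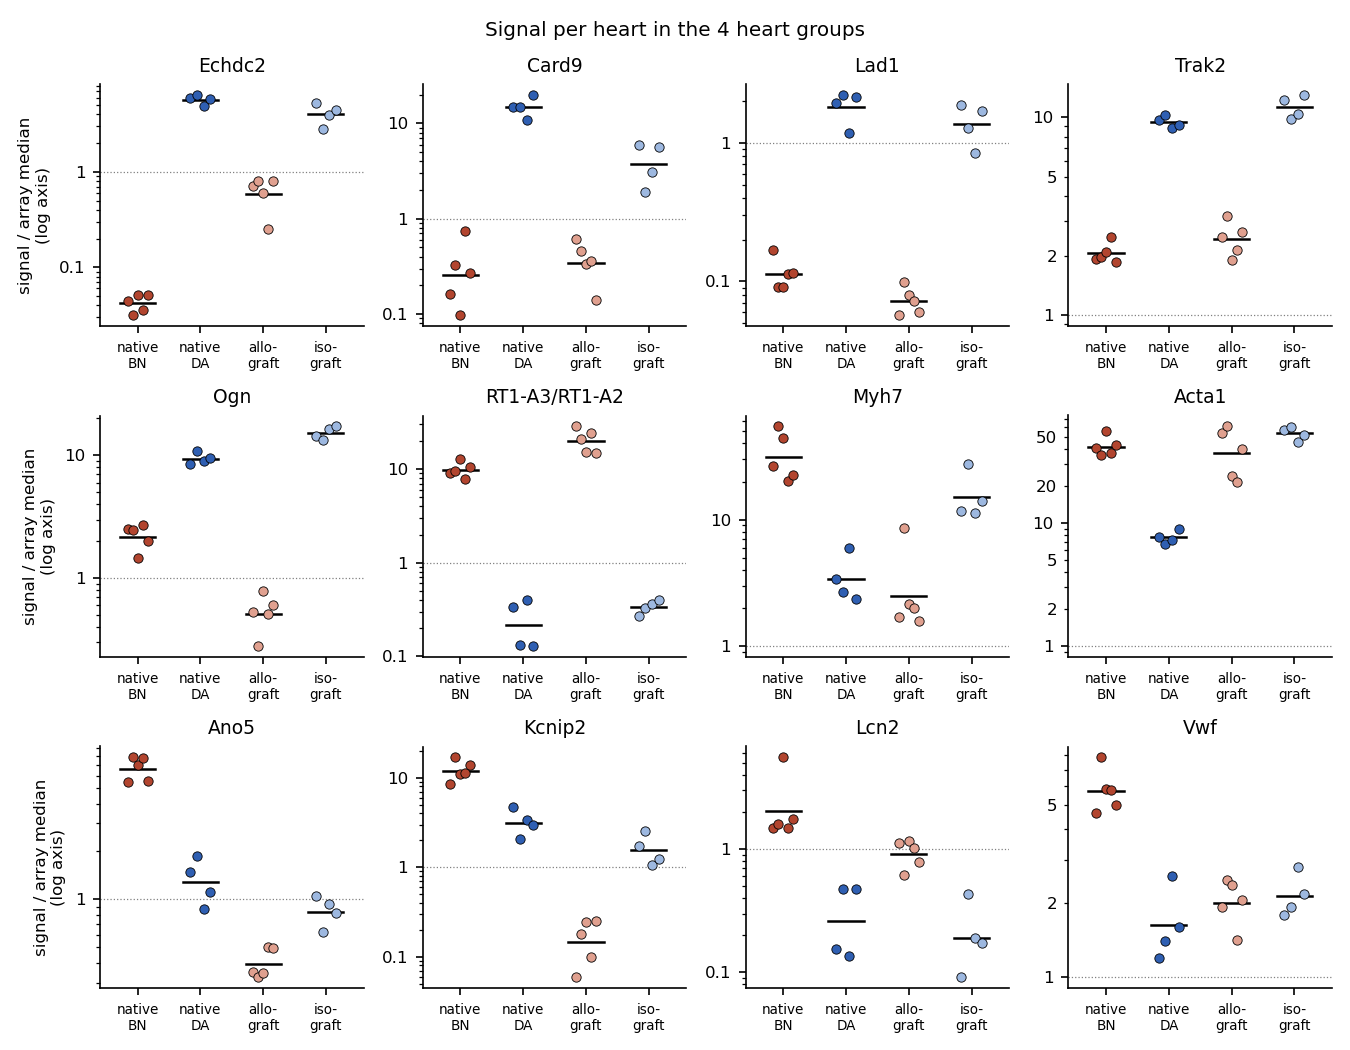
Level of 12 genes in each heart (y axis, signal over array median, log axis), 1 point per heart, with bars at the geometric mean of 5 native BN hearts, 4 native DA hearts, 5 allografts and 4 isografts. Ano5, Kcnip2, Lcn2 and Vwf are higher in native BN hearts than in all 13 DA hearts, whereas Card9, Lad1 and Trak2 are low in allografts as in native BN hearts.

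Lcn2, Reg3b, Reg3g and Pla2g2a, secreted proteins known from inflamed tissue, were also called higher. Lcn2, lipocalin 2, an iron-carrier-binding protein of neutrophils and inflamed tissue, was at 1.47, 1.6, 5.52, 1.49 and 1.77 array medians in BN hearts and 0.155, 0.476, 0.137 and 0.471 in DA hearts (7.73-fold higher, or 4.3-fold with 0.25 array medians added, SE 0.50, adjusted p = 0.00472). Heart A5 was high, and the other 4 BN hearts all lay above the DA hearts. The secreted lectins Reg3b and Reg3g also peaked in A5. Reg3b was at 1.52, 1.49, 10.1, 2.44 and 1.62 in BN and 0.524 to 0.763 in DA hearts (4.05-fold higher, adjusted p = 0.0498), and the call was lost without A5, I9, I11 or I12. Reg3g was at 2.22, 3.89, 9.92, 3.45 and 5.19 in BN and 0.744 to 1.46 in DA hearts (4.52-fold, adjusted p = 0.0293). Pla2g2a, a secreted phospholipase of the acute phase, was at 25.4 to 54 in BN and 8.21 to 13.7 in DA hearts (3.16-fold, adjusted p = 0.0293), lost without A5 or I13.

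Metallothioneins, small metal-binding proteins induced by cytokines, glucocorticoids and zinc, were higher by 2 probesets. The one assigned to Mt1 together with Mt1f and Ttr was at 21.3, 34.3, 26.6, 13.5 and 28.9 array medians in BN and 3.66, 5.24, 7.24 and 4.9 in DA hearts (4.65-fold, adjusted p = 0.000282). Mt2A was at 8.39 to 18.3 and 5.22 to 6.81 (2.16-fold, adjusted p = 0.0153). Of 33 measured genes of the acute phase and IL-6 response, however, only Lcn2 and Mt2A were higher, Il6r was lower (2.3-fold, adjusted p = 0.0408) and 30 did not pass. Classical members such as haptoglobin, Hp (0.318 and 0.276, adjusted p = 0.929), and Socs3 (1.16 and 0.906, adjusted p = 0.621) were among these 30. The median of the list was 0.21, and over all genes 1.31% were higher and 1.39% lower. Reg3b, Reg3g, Pla2g2a and the Mt1 probeset, which are given above, are not among the 33.

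Vwf, von Willebrand factor, which endothelial cells store and release, was at 4.67, 7.83, 5.83, 5.76 and 5.04 array medians in BN hearts and 1.2, 1.4, 2.59 and 1.6 in DA hearts (3.53-fold higher, SE 0.23, adjusted p = 0.000389). E-selectin, Sele, the leukocyte adhesion molecule of activated endothelium, was at 0.468 to 1.33 and 0.0441 to 0.293 (7.49-fold higher, adjusted p = 0.00187), below the signal criterion. The growth factor receptor Kdr was 1.5-fold higher (adjusted p = 0.04), and Car4, a carbonic anhydrase of capillary endothelium, 3.01-fold lower (adjusted p = 0.0545). Kdr no longer passed without A5 or I13, and Car4 without A7, I11 or I13. The other 21 of 25 measured endothelial genes did not pass, among them the general marker Pecam1 (2.77 and 2.57, adjusted p = 0.841), Icam1 (1.32 and 0.721, adjusted p = 0.338) and Vcam1 (1.79 and 1.09, adjusted p = 0.262). The selectin gene Selp had negative log2 fold changes at both of its probesets and did not pass (-0.53 and -1.07, adjusted p = 0.746 and 0.343). Of the 25 endothelial genes, 16 had a positive and 9 a negative log2 fold change, with a median of 0.13. Over all genes 1.31% were higher and 1.39% lower.

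Some interferon-induced genes were lower in BN hearts. Interferons act through factors that bind a shared response element, and their targets block viral replication. Ifi27, a small membrane protein among the most strongly induced targets, was at 13.2, 17.8, 14.7, 13.4 and 19.3 array medians in BN hearts and 49.2, 40.3, 38.5 and 50.6 in DA hearts (2.86-fold lower, SE 0.18, adjusted p = 0.000244). The 9 transplanted DA hearts had 31.1 to 53.2, so all 13 DA hearts lay above all BN hearts. Ifit1, which binds viral RNA, was at 0.738 to 1.28 and 1.86 to 2.39 (2.31-fold lower, adjusted p = 0.000801). Irf7, the factor that amplifies interferon production, was at 1.69 to 3.5 and 3.56 to 6.58 (2.01-fold lower, adjusted p = 0.0318; 0.115 without I13). Rsad2, viperin, was 1.88-fold lower with overlapping groups (adjusted p = 0.088), and without A3, A4, A6, A7, I11, I12 or I13 it did not pass (up to 0.217). Ifitm1 was 1.6-fold higher (adjusted p = 0.0545). The other 28 of 33 measured members did not pass, and the median of -0.02 was close to that of all genes. Over all genes 1.39% were lower and 1.31% higher. Mx1 was at 0.727 and 1.06 (adjusted p = 0.271) and Cxcl10 at 1.16 and 0.75 (adjusted p = 0.431). In place of these 5, 2 members passed without I13 and 3 without A4, A7 or I12.

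The promoters of the lower members are shown because a letter pattern of the interferon-stimulated response element (GAAA, any 2 bases, then GAAA, on either strand) occurred in all 3 that matched by symbol. The sequences are from RefSeq (build GRCr8), run 5′ to 3′ up to the base before the start, and carry the match in capitals, which Irf7 and Rsad2 hold on the opposite strand. Ifit1 was not matched. Ifi27 lies at chr6:128355192-128355311 (plus strand), Irf7 at chr1:205800024-205800143 (minus strand) and Rsad2 at chr6:48788121-48788280 (minus strand).
Ifi27: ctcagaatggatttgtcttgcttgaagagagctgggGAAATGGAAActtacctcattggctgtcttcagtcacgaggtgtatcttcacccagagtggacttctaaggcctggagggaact
Irf7: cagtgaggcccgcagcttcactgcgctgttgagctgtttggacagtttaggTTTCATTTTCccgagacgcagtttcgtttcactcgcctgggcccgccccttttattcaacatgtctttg
Rsad2: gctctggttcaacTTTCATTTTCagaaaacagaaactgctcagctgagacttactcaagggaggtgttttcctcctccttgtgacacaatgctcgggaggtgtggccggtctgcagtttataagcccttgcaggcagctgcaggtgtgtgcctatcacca
Ifi27 has a second match farther upstream, 169 to 160 bases before the start. Of the 27 interferon-induced genes with a promoter in the table, 16 held the pattern, against 3.41% of all 33469 promoters. The pattern is therefore shared with list members that did not differ between the hearts.

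Immediate early genes, which respond within minutes to growth factors and stress, were lower in BN hearts where they passed. Of 25 measured, 4 were lower, none was higher and 21 did not pass (median -0.29). Over all genes 1.39% were lower and 1.31% higher. Ccn1, a secreted matrix-associated protein, was at 1.43, 1.3, 0.916, 1.38 and 1.03 array medians in BN and 3.65, 4.72, 2.58 and 2.31 in DA hearts (2.67-fold lower, adjusted p = 0.0413). The kinase phosphatase Dusp1 was at 7.63 to 11.3 and 15.4 to 21.8 (1.84-fold lower, adjusted p = 0.0395). The transcription factor Egr1 was at 2.07 to 3.87 in BN hearts and 9.18, 11.6, 3.79 and 3.98 in DA hearts, with high values in I9 and I11 (2.32-fold lower, adjusted p = 0.0784). Ier2 had the same pair of high hearts, at 5.7 and 5.34 against 2.84 and 3.17 in I12 and I13 (2.08-fold lower, adjusted p = 0.0678). Fos did not pass (1.03 and 2.73, adjusted p = 0.167). These calls rested on single hearts: without I11 none of the 25 passed, without I9 or A5 1 did, and without A3, A6 or A7 2 did.

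**Figure D3:**
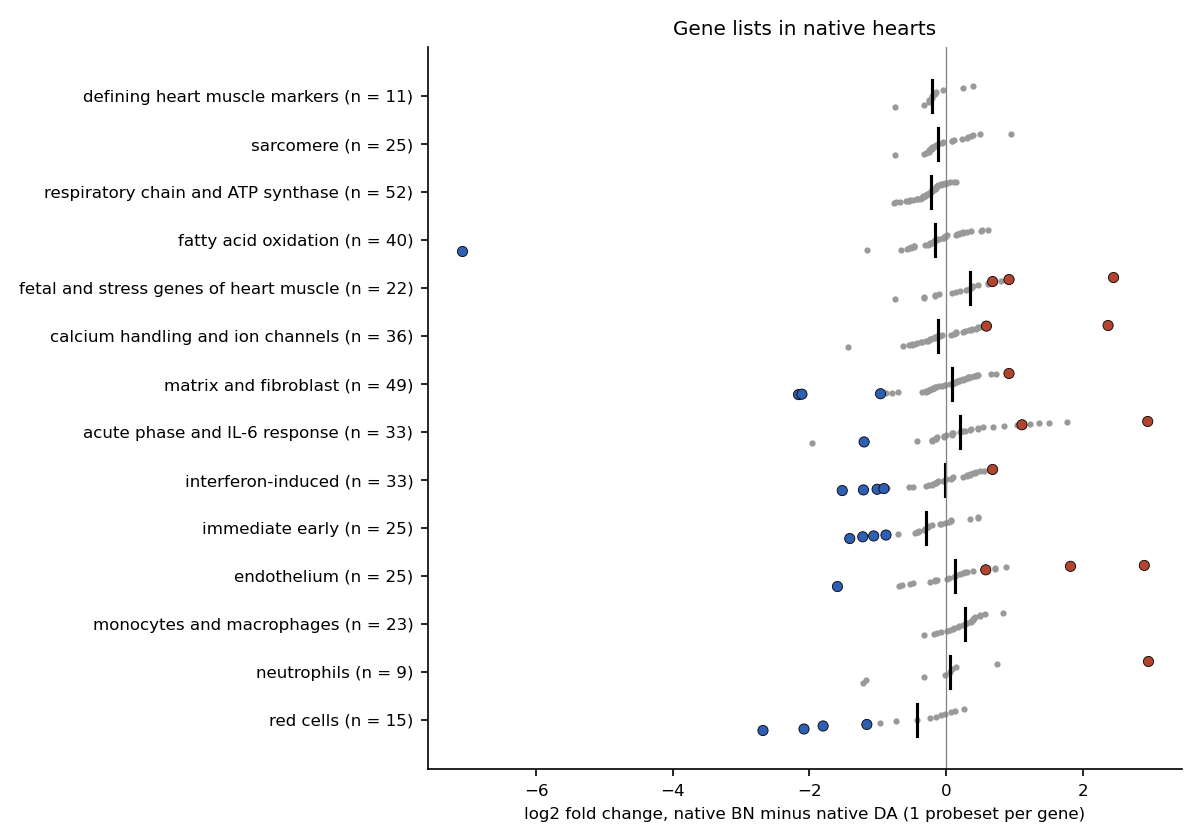
Log2 fold change of native BN over native DA hearts (x axis) for the members of 14 gene lists (rows, n is the number measured), 1 point per gene by its brightest probeset, with the list median as a bar. Large coloured points passed an adjusted p of 0.10 (red higher, blue lower in BN), and most lists have a median near 0 and few coloured points.

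Some red cell transcripts were lower in BN hearts. Of 15 measured, 4 were lower, none was higher and 11 did not pass, and the list median of -0.43 was the second lowest of the 32 lists. Over all genes 1.39% were lower and 1.31% higher. Hba-a3, an alpha-globin gene, was at 11.4, 21.6, 11.8, 8.64 and 15.1 array medians in BN and 34.7, 70.7, 47.1 and 79.2 in DA hearts (4.22-fold lower, SE 0.39, adjusted p = 0.0122). Ahsp, the chaperone of free alpha-globin, was at 0.0596, 0.0516, 0.295, 0.131 and 0.0683 in BN and 0.336, 1.02, 0.532 and 0.788 in DA hearts (6.41-fold lower, adjusted p = 0.0365; it no longer passed without I11 or I13, with 0.109 at most). Bpgm, which makes the regulator of oxygen release, was 2.24-fold lower (adjusted p = 0.0257) and Car2, the red cell carbonic anhydrase, 3.48-fold lower (adjusted p = 0.000201). The second Car2 probeset did not pass (log2 fold change -0.48, adjusted p = 0.311). The main beta-globin gene Hbb was at 114 and 188 and did not pass (adjusted p = 0.187), nor did Alas2 of heme synthesis (8.21 and 16.1, adjusted p = 0.145). The summed level of the 15 genes was 142 to 239 array medians in BN and 258 to 423 in DA hearts. Hbb, which did not pass, made up a large part of this sum, so it does not describe the 15 genes evenly.

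A further beta-globin probeset, assigned to Hbbl1 and Hbb-bs, had a larger split than the rest of the list. It was at 6.36, 12.6, 9.68, 4.71 and 11.3 array medians in BN hearts and 82.9, 123, 87.8 and 139 in DA hearts (12.6-fold lower, SE 0.45, adjusted p = 0.000268). The galectin probeset of Lgals9 and Lgals5, the second of which is known from rat red cells, was 3.35-fold lower (adjusted p = 0.00399). It was not tested how much of these differences the blood left in the tissue accounts for.

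**Figure D4:**
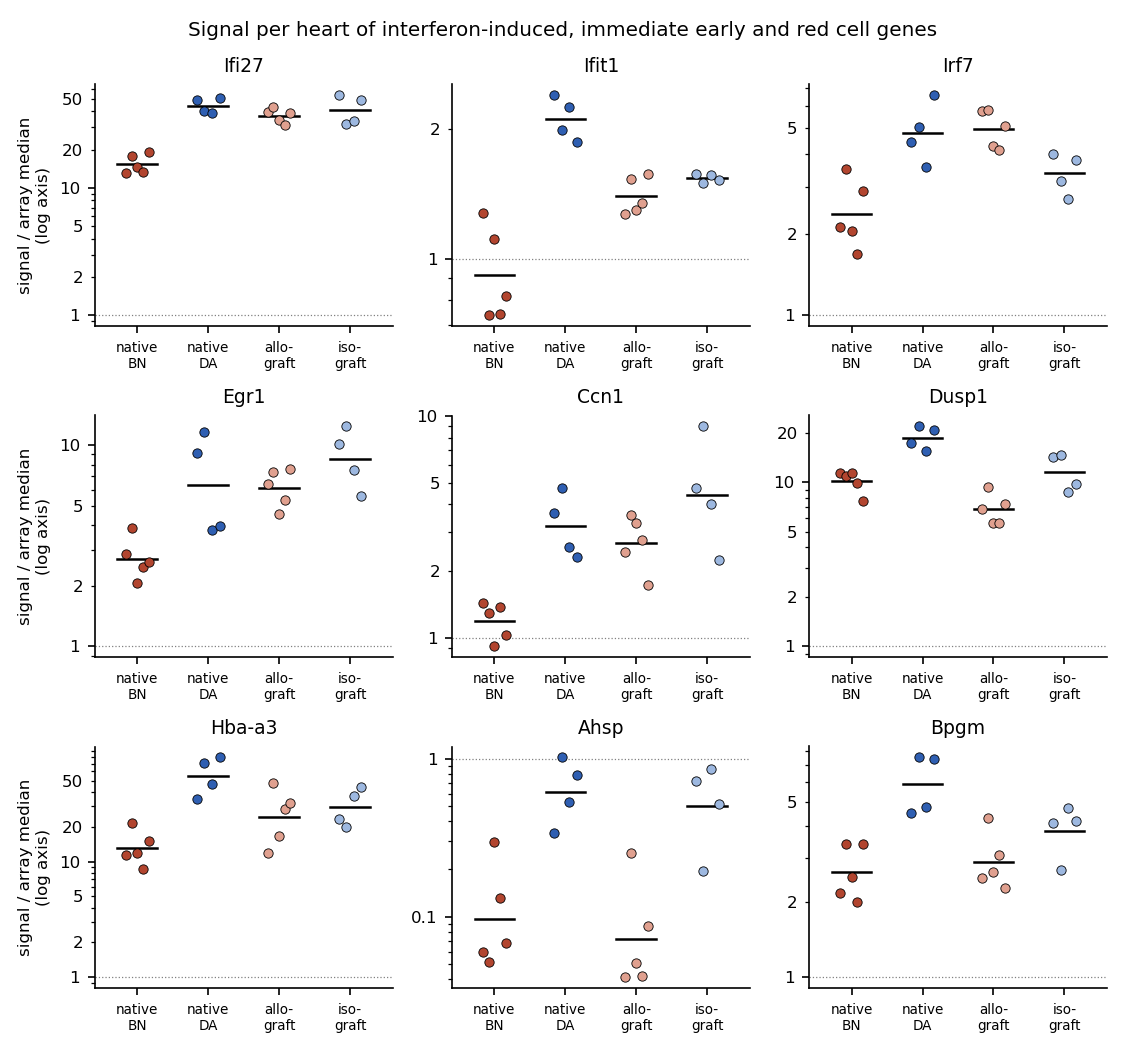
Level of 9 genes in each heart (y axis, signal over array median, log axis), 1 point per heart, with bars at the geometric mean of the 4 heart groups. The top row shows interferon-induced genes, the middle row immediate early genes and the bottom row red cell genes, each with a lower mean in BN than in DA native hearts.

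The other calls lower in BN included probesets of genes of intracellular transport and of the matrix. Trak2, which links mitochondria to kinesin motors, was at 1.93, 1.97, 2.09, 2.48 and 1.86 array medians in BN and 9.71, 10.3, 8.8 and 9.16 in DA hearts (4.6-fold lower, SE 0.16, adjusted p = 3.8e-07). The called probesets of the motor genes Klc1, a kinesin light chain, and Kif13a, a kinesin, were 3.57-fold and 3.36-fold lower. Other probesets of Trak2 (0.01 on the log2 scale), Klc1 (-0.3, 0.36 and 0.17) and Kif13a (0.2) did not pass. Ogn, osteoglycin, a small proteoglycan, was at 1.46 to 2.69 and 8.53 to 10.8 (4.3-fold lower, adjusted p = 0.000201), while its 3 other probesets did not pass and had log2 fold changes of -1.11, 0.99 and 0.16. Loxl1, a crosslinker of elastin, was 4.47-fold lower with overlapping groups (adjusted p = 0.0851). Ogn, Loxl1, Sparc (1.94-fold lower) and Ccn2 were the only 4 of 49 matrix and fibroblast genes to pass, and 1 passed without A5, A7, I11 or I13, which was Ogn. Slc3a1, a subunit of the cystine transporter, was 6.5-fold lower, Nap1l5, of the nucleosome assembly family, 6.15-fold, and Dusp6, a phosphatase of ERK kinases, 4.21-fold. With 0.25 array medians added, the called Dusp6 probeset was 2.92-fold lower. Other probesets of Dusp6 did not pass (-0.04 and -0.52 on the log2 scale). The remaining named calls lower in BN were LOC100909684 (7.79-fold), Myh1 (4.19-fold), Arpc4 (3.33-fold), Pik3c2g (3.33-fold), Glrx (3.26-fold), Hmgb1 with its pseudogene Hmgb1-ps33 (3.18-fold) and the monocarboxylate transporter Slc16a7 (3.08-fold). Single hearts carried some of these: the calls were lost without A6 (Kif13a, Glrx, Hmgb1), A5 (Hmgb1, Slc16a7), A4 (Slc16a7), I9 (Kif13a), I11 (Kif13a, Slc16a7, Lgals9/Lgals5), I12 (Kif13a, Arpc4, LOC100909684) or I13 (LOC100909684).

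The other named calls higher in BN were mostly dim in DA hearts. Ythdf2, a reader of methylated RNA, was at 4.94, 5.41, 4.02, 2.78 and 2.71 array medians in BN and 0.839, 1.07, 0.619 and 0.134 in DA hearts (7.31-fold higher, adjusted p = 0.00382). Taok1, a stress-pathway kinase, was 6.3-fold higher at 0.577 to 1.27 in BN hearts, and Lysmd4 4.1-fold higher at 0.869 to 1.29. Igfbp3, which binds insulin-like growth factors, was at 5.75 to 8.69 and 2.07 to 2.41 (3.08-fold higher, adjusted p = 0.0014), and its second probeset passed as well (2.75-fold, adjusted p = 0.00184). The splicing regulator Celf2 (3.64-fold), the endoplasmic reticulum chaperone Canx (3.64-fold, with -0.23 and 0.09 on the log2 scale at its 2 other probesets, which did not pass), Cds1 of phospholipid synthesis (3.46-fold), Arhgap27 (3.38-fold), the actin-associated Synpo (3.06-fold), the complement probeset C4b/C4a (3.06-fold) and Tnrc6b of microRNA silencing (3.02-fold) completed the list. Of these 7, Canx was lost without I11, Synpo without A4, A5 or I11, and each of the other 5 without 6 or 7 of the 9 hearts. Igfbp3 fell under 3-fold without A4. Of 57 detoxification genes 1 was higher and 3 were lower: Ephx2, the soluble epoxide hydrolase, was 2.54-fold higher (adjusted p = 0.0141), with 3.02 to 5.32 in BN hearts and at most 2.13 in any DA heart. The glycolytic enzyme Eno1 was 1.83-fold higher (adjusted p = 0.00368), at 34.9 to 45.8 and 18.7 to 27.7.

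Leukocyte markers gave few differences. Of 24 genes of T and NK cells, 1 was lower, the interleukin receptor chain Il2rb (1.7-fold, adjusted p = 0.0358). None of 23 monocyte and macrophage genes passed (median 0.28, 19 of 23 positive), and none of 5 B cell genes. Of 9 neutrophil genes only Lcn2 passed, while the neutrophil granule genes S100a8 (0.698 and 0.63, adjusted p = 0.938) and S100a9 (3.83 and 2.3, adjusted p = 0.607) did not. The summed level of the macrophage list was 75.4 to 106 array medians in BN and 70.2 to 88.8 in DA hearts, and the part of such cells in the results above was not tested. None of 16 clock genes, 29 heat shock genes, 19 hypoxia genes or 18 smooth muscle genes passed.

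For 18 of the 42 called genes with 1 symbol, another probeset of the same gene could be read beside the called one. Only for Igfbp3, Celf2, Myh1 and Lysmd4 did another probeset pass the test. The second Celf2 probeset agreed in direction (log2 fold change 0.87, SE 0.17). Of Myh1, a fast myosin of skeletal muscle, the called probeset was 4.19-fold lower in BN hearts, and another of its 5 probesets was higher (log2 fold change 1.05, SE 0.22, adjusted p = 0.0218). The called Lysmd4 probeset was higher in BN (2.04), and the others were lower by -2.55 and -2.81 (adjusted p = 0.0218 and 0.0175). For Trak2 the second probeset did not pass (log2 fold change 0.01, SE 0.14, adjusted p = 0.986). Echdc2, Card9, Lad1, Acta1, Ano5 and Vwf have 1 probeset each here.

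The transplanted hearts were DA donor hearts in a BN or a DA recipient. Rejecting allografts also hold leukocytes of the BN recipient, so their levels are not those of DA muscle alone. In 17 of the 57 called probesets, the 5 native BN hearts lay apart from all 13 DA hearts, 7 higher and 10 lower (1.08% of all probesets did so). The higher ones with a symbol were Ano5, Kcnip2, Lcn2, Lysmd4, Pla2g2a and Vwf. The lower ones were Echdc2, RT1-A, RT1-Ba, Dusp6, Glrx, Myh1, Arpc4 and the Hmgb1 probeset. For Lysmd4 and Myh1 this is the called probeset, and another probeset of each passed between the native hearts in the opposite direction. In 21 of the 57, the 10 hearts taken from BN recipients lay apart from the 8 hearts taken from DA recipients (0.681% of all probesets), 5 higher and 16 lower. In 3 probesets, Echdc2, Lcn2 and that of Hmgb1, both patterns held. The calls were made on the native hearts, which are part of both patterns, so the shares over all probesets are given as background only.

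Values for single genes show how these patterns differ. Card9 was at 0.254 array medians on average in native BN hearts and 14.8 in native DA hearts, at 0.139 to 0.62 in allografts and at 1.91 to 5.94 in isografts, so allografts had the low level. Lad1 was at 0.0568 to 0.0984 in allografts and 0.845 to 1.89 in isografts. Trak2 was at 1.9 to 3.18 and 9.84 to 12.9, and the RT1-A3/RT1-A2 probeset at 14.8 to 28.5 and 0.273 to 0.403. Echdc2 was at 0.25 to 0.807 in allografts, below isografts (2.83 to 5.26) and above native BN hearts. Acta1 differed from all of these: isografts (45.8 to 60) and allografts (21.6 to 60.7) both had the high level of native BN hearts, and the native DA hearts alone were low. Allografts were rejecting and isografts were not, so recipient strain and rejection coincide in these hearts too. When isografts alone were set beside the native hearts, native BN hearts lay apart from both native DA hearts and isografts in 39 of 57 calls (2.21% of all probesets), 27 lower and 12 higher, a grouping chosen after the data were seen.

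Blood mononuclear cells of untransplanted rats give a strain comparison in animals without a graft. All 57 probesets are on the blood array. In these cells 13 passed an adjusted p of 0.10 in the direction of the native hearts, 1 passed in the opposite direction and 43 did not pass (9.16% of the heart array's probesets passed in either direction). The class I probeset of RT1-A3 and RT1-A2 was at 103 array medians in BN and 0.873 in DA cells (log2 fold change 6.88, SE 0.38, adjusted p = 1.7e-09), beside 5.50 in the hearts. RT1-A was lower by -5.70 (adjusted p = 2.45e-10) and RT1-Ba by -4.35 (adjusted p = 1.3e-07). Others were the Hmgb1 probeset (-2.54 on the log2 scale), the beta-globin probeset of Hbbl1 and Hbb-bs (-2.68), the called Myh1 probeset (-1.58), Klc1 (-0.88), Arpc4 (-0.60), Ythdf2 (1.68) and Lysmd4 (4.13), and 3 had no symbol. The called Myh1 probeset was at 17.1 array medians in BN and 51 in DA blood cells. Whether it measures this skeletal muscle myosin was not tested. Of these 13, 12 also passed in the same direction between BN allograft and DA isograft recipients, which include the rats that gave the hearts except I13. In recipients 21 of the 57 passed in the direction of the hearts and 7 in the opposite one. The share over all probesets is not given for recipients, so nothing is read from their counts.

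The opposite gene was Card9. In untransplanted blood cells it was at 4.06 array medians in BN and 1.52 in DA rats (1.42 on the log2 scale, SE 0.30, adjusted p = 0.00702 in limma), and in recipients at 2.89 and 1.45 (0.99, adjusted p = 0.0026). Card9 is described here because it was the 1 of 57 with the opposite direction, so the difference between the tissues is given without a test. Of the 57 probesets, 26 missed the signal criterion in untransplanted blood, among them those of Echdc2, Lad1, Myh7, Acta1, Ano5 and Lcn2, so blood gives no reading of their strain difference. Trak2 was bright enough and did not pass (-1.15, SE 0.40, adjusted p = 0.114) but passed in recipients (-2.02, adjusted p = 5.79e-05). Vwf was at 12.5 and 16.5 (-0.40, adjusted p = 0.479), and in recipients it was lower in BN rats (-1.07, adjusted p = 0.000568), opposite to the hearts.

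**Figure D5:**
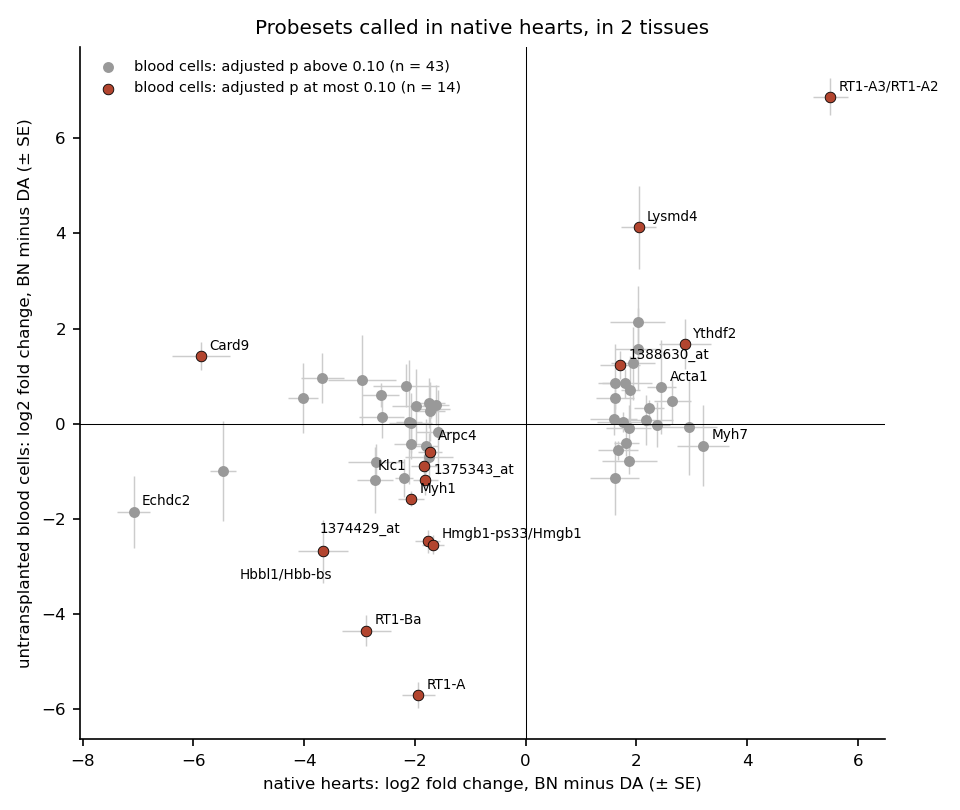
Log2 fold change of BN over DA in native hearts (x axis, 5 against 4 hearts) and in blood cells of untransplanted rats (y axis, 3 against 3 rats) for the 57 probesets called in hearts, with model standard errors as bars. The 14 red points passed an adjusted p of 0.10 in blood cells, and Card9 alone of these lies in the upper left, lower in BN hearts and higher in BN blood cells.

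Single hearts decided a share of the calls. With each heart left out in turn, 36 of the 57 calls held in all 9 fits, and 23 held there and under the 8 other settings as well. No call reversed its sign. The 23 include Echdc2, Card9, Lad1, the class I probeset of RT1-A3 and RT1-A2, Trak2, Ogn, Nap1l5, Klc1, Hba-a3, Car2, Acta1, Myh7, Ano5, Kcnip2, Vwf, Reg3g and Ythdf2. Leaving out I11 removed 12 of the 57 calls, A5 10, and I9 and I13 9 each. Of 41 called genes with 1 symbol that could be placed in the gene order of GRCr8, only Reg3b and Reg3g lay within 5 genes of each other; probesets with several symbols were not placed. In a fit of the 9 native hearts alone, 44 of the 57 calls were kept, and the 13 lost were Slc3a1 (adjusted p = 0.104), Loxl1, Kif13a, Glrx, Car4, Tnrc6b, Synpo, Arhgap27, Cds1, Canx, Celf2, Reg3b and 1 without a symbol (0.106 to 0.238). With 0.25 array medians added before the logarithm, Slc3a1 became 4.25-fold, LOC100909684 3.39-fold and Loxl1 2.71-fold lower, and Taok1 2.91-fold and Lysmd4 2.62-fold higher.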

How the data were processed

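Heart tissue was measured on 18 Affymetrix RAE230A arrays and blood mononuclear cells on 20 RAE230 2.0 arrays, 1 per heart or blood sample. The authors derived signal intensities on a linear scale with the MAS5 algorithm, and the deposited arrays are scaled to a common trimmed mean. The version of that software is not given in the sources used here, and present calls were not used. Untransplanted and transplanted rats were processed as separate batches for blood cells; no batch of the heart arrays is given in the sources used here.

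Signals were divided by the array median and transformed to log2. After 57 control probesets were left out on each array type, 15866 remained for heart and 31042 for blood cells. Of the heart probesets, 12783 had 1 gene symbol, 312 several and 2771 none in the platform annotation, and 12748 of the first were matched to GRCr8. Each tissue was fitted with a mean for each of its 4 groups in limma 3.58.1 (R 4.3.3), with Benjamini-Hochberg adjustment over all its probesets. The fit was tested on simulated data. In place of the present call of the study's methods, a signal criterion was used. Component scores were compared with scipy 1.17.1. Each array is of a separate rat within its group, and precision is limited by how few arrays there are.

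The members, the 32 gene lists and the rule for named genes were chosen with earlier results of these data known. Named were the 12 called genes with 1 symbol and the largest fold in each direction, other called genes with their fold, up to 4 members a list with the largest change past the adjusted p, called genes with native BN hearts apart from all 13 DA hearts, and abundant heart markers; list members that did not pass were named after their values were seen. A gene in a list is represented by its brightest probeset over the 9 native hearts. A native and a transplanted heart of 1 number come from the same recipient, so these samples pair. Their deviations from the group means correlated by -0.13 to 0.21, and the recipient was tried as a random block. Alternatives were another normalization, scale, pseudocount, signal criterion, set of samples, variance model, fold or adjusted p, and leaving out each heart.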

Additional observations from a re-analysis of the deposited data

Results flagged for a closer look

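Among 126 groups of native hearts examined for 1 heart far from its own group, 8 had one, where chance gives about 1 in 20 groups. Native BN heart A5 stood apart at Lcn2 (5.52 array medians, with 1.47 to 1.77 in the other BN hearts) and at Reg3b (10.1, with 1.49 to 2.44). Heart A4 stood apart at the called Myh1 probeset (5.39, with 3.98 to 4.25) and in its second component score (-67.5). Heart A3 was low at LOC102553868 (0.15, with 0.255 to 0.308), and heart A7 was high at the dim cell cycle gene Bub1b (0.167, with 0.0921 to 0.108; 2.28-fold higher in BN hearts, adjusted p = 0.0395 in limma, lost without I11). Of the native DA hearts, I13 was high at RT1-Ba (1.86, with 1.09 to 1.19) and I11 low at RT1-A (0.448, with 1.06 to 1.23).

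Card9 differed between tissues, with a BN minus DA difference in native hearts that was -7.28 from the one in untransplanted blood cells on the log2 scale, -5.86 against 1.42. The gene was picked out of 57 for this opposite direction, so no test is given.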

How the results depend on the processing

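The 57 calls (25 higher, 32 lower) became 35 (all among the 57) with 0.25 array medians added before log2 (13 higher), 124 with no signal criterion (62 and 62) and 156 at a fold change of at least 2 (70 and 86), and at the 65th percentile as the signal criterion 16 were higher. With 1 heart left out the count was 51 to 62, with 20 to 30 higher and 29 to 34 lower. The 466 probesets past the adjusted p became 278 with only the 9 native hearts in the fit (45 called, 44 of them shared) and 700 with limma trend, and 261 to 437 with 1 heart left out (275 without A5, 306 without I11, 261 without I13). With the recipient number as a random replicate block, the paired fit, 57 were called and all 57 were shared with the unpaired fit, and 463 passed the adjusted p. Quantile normalization shared 54 of the 57 and the deposited scale 56. The 13 probesets that passed in the same direction in untransplanted blood became 9 to 14 with 1 rat left out. Of 1037 combinations of 61 named genes and a setting, none reversed, 162 lost the call or the adjusted p and 875 kept it, and 26 genes kept it in all. Where a cause is not part of the setting, the cause was not tested. Dim probesets limit the fold changes, since 36 of the 57 calls had 1 group mean under the array median.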

Other observations

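Beyond the calls, 67 probesets passed the adjusted p and differed at least 3-fold but missed the signal criterion. Native BN and DA hearts did not overlap in 49 of them, and in 6.67% of all probesets. The 67 were picked on the same values, so nothing is read from this. Several further lists had at most a few members past the adjusted p in limma. Of 21 glucocorticoid-induced genes, Lcn2 and Mt2A were higher and Dusp1 was lower (median -0.20). Of 36 genes of calcium handling and ion channels, Ano5 and Gja5 were higher, and Gja5, the connexin of atrium and conduction tissue (1.51-fold, adjusted p = 0.0978), was also the 1 higher of 20 atrial genes. The called Kcnip2 probeset is not the brightest of its gene and does not enter the count of the 36. Of 27 skeletal muscle genes 1 was higher (Myh1 by its brightest probeset), of 29 cell cycle genes 1 (Bub1b), of 17 atrophy and autophagy genes 1 (Igfbp3) and of 16 complement genes 1 (Serping1, 2.43-fold, adjusted p = 0.069). Of 12 mesothelial and epicardial genes Lad1 was lower (median -0.48), and of 17 adipose genes the glycerol channel Aqp7 (1.95-fold, adjusted p = 0.0506). None of 17 genes of nerve and Schwann cells passed (median -0.28, 13 negative). Glutathione transferase Gsta4 was 1.9-fold lower (adjusted p = 0.0865) and Cyp2j4 1.46-fold lower (adjusted p = 0.0784). Aqp7 no longer passed without A3, A5 or I13. Gja5, Serping1, Gsta4 and Cyp2j4 were lost in most of the 9 fits that left out 1 heart, those without A3, A5, I9, I11 or I13 among them.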
